A study of Mus musculus with 24 samples.

Results

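Socs3, Socs1, Sbno2, Stat3, Il10ra, Il10rb, Il4ra, Jak1 and Tyk2 are genes of IL-10 signalling and of the related cytokine receptors and inhibitors, and their RNA was followed in BV2 cells and in the extracellular vesicles (EVs) that these cells release. The 9 genes were chosen by symbol, as receptor chains, kinases, a STAT and its response genes and inhibitors, out of the 13290 genes listed in the count tables, and all 9 were found. BV2 is an immortalised mouse microglial cell line, so all libraries come from 1 line. Cells had been treated for 72 h with LPS at 100 ng/mL (the bacterial lipopolysaccharide that activates TLR4), with IL-10 at 50 ng/mL or with TGF-β at 50 ng/mL, or were controls. RNA of the cells and RNA of their EVs was sequenced, with 3 libraries for each of the 8 groups and 24 in all. The labels tie no library to a culture of its own. The p-values therefore cover the variation among libraries of a group, and that variation may be technical. The series also describes recipient cells dosed with EVs, which were not analysed here.

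IL-10 binds a receptor made of the ligand-binding chain Il10ra and the shared chain Il10rb. Jak1 sits on the first chain and Tyk2 on the second, and on ligand binding they phosphorylate the transcription factor Stat3. In macrophages and microglia, Stat3 then switches on genes such as Socs3, whose protein blocks gp130-type receptors but not the IL-10 receptor, and Sbno2, a co-regulator that restrains NF-κB target genes. Socs1 is the related brake on interferon signalling, and Il4ra is the signalling chain of the IL-4 and IL-13 receptors, which work through Jak1 and Stat6.

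Promoter sequences of 7 of the 9 genes were matched in the RefSeq promoter table (GRCm38.p6), as 9 windows from 250 bases before to 50 bases after a transcription start, since Sbno2 has 3 starts there. Il10ra and Il10rb have no entry. The windows were searched on both strands for the palindromic STAT-type letters TTCNNNGAA and TTCNNNNGAA and for the interferon-response type letters GAAANNGAAA (TTTCNNTTTC on the other strand). Over all 32851 promoters of the table, 8.3% hold TTCNNNGAA, 6.95% hold TTCNNNNGAA and 3.44% hold GAAANNGAAA. The 4 windows that hold a match are shown 5′ to 3′ on the strand of the gene, with the match in capitals, because only these hold the letters searched for.
Socs3 promoter: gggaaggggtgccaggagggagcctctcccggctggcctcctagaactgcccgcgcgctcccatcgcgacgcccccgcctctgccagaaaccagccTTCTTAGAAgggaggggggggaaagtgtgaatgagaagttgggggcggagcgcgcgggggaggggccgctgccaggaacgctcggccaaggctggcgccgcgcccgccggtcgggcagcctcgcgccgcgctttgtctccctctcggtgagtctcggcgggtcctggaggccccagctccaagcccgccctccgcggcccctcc
Socs1 promoter: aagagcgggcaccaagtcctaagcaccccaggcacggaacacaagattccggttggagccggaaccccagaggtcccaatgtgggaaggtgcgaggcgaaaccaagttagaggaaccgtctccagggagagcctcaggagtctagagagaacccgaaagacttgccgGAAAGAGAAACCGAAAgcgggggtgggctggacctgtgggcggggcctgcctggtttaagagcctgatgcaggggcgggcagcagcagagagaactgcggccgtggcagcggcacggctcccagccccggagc
Sbno2 promoter 1: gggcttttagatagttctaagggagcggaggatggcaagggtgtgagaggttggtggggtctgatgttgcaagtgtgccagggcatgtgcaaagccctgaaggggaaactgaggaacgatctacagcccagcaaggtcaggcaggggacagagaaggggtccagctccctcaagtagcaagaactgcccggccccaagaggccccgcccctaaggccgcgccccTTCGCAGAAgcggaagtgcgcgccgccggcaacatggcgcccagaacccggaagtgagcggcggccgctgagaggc
Sbno2 promoter 2: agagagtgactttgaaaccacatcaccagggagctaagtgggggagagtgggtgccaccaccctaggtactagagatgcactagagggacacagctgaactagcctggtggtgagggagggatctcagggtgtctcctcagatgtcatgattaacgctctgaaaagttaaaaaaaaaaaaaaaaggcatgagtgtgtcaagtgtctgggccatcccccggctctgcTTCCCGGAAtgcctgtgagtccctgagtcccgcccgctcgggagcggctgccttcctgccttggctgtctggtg
The Socs3 window (chr11:117969317-117969616, minus strand) holds TTCTTAGAA at positions -154 to -146 from the start. The Sbno2 windows (chr10:80102653-80102952 and chr10:80101138-80101437, minus strand) hold TTCGCAGAA at -26 to -18 and TTCCCGGAA at -24 to -16. The Socs1 window (chr16:10785487-10785786, minus strand) holds the overlapping matches GAAAGAGAAA at -83 to -74 and GAAACCGAAA at -77 to -68, and no STAT palindrome. The third Sbno2 window and those of Stat3, Il4ra, Jak1 and Tyk2 hold none of these letters. A match is a run of letters and not a measured binding site.

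The count tables held 26136825 to 42125153 counts per cell library and 3019338 to 17978753 per EV library. Of all listed genes, 4.91% to 7.25% had no count in a cell library, against 0.49% to 4.42% in an LPS EV library and 19.58% to 50.0% in the other EV libraries. The LPS EV libraries thus had the fewest genes at 0 among EVs, at 3019338 to 6278724 counts per library. Levels are given in CPM, counts scaled to the size of the library, here by TMM over the 12 libraries of cells or the 12 of EVs. Of the 15 microglia and macrophage markers looked for, 13 are listed in the tables, and they summed to 7357 to 10378 CPM of library totals in the cell libraries and 2098 to 7956 CPM in the EV libraries. Cx3cr1, a defining microglial receptor, averaged 0.0116 CPM in LPS cells, 0 in IL-10 cells, 8.13 in TGF-β cells and 0.081 in control cells, and both Cx3cr1 and Tmem119 were at 0 in control EVs. The neuronal markers summed to at most 0.285 CPM in any cell library.

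**Figure D1:**
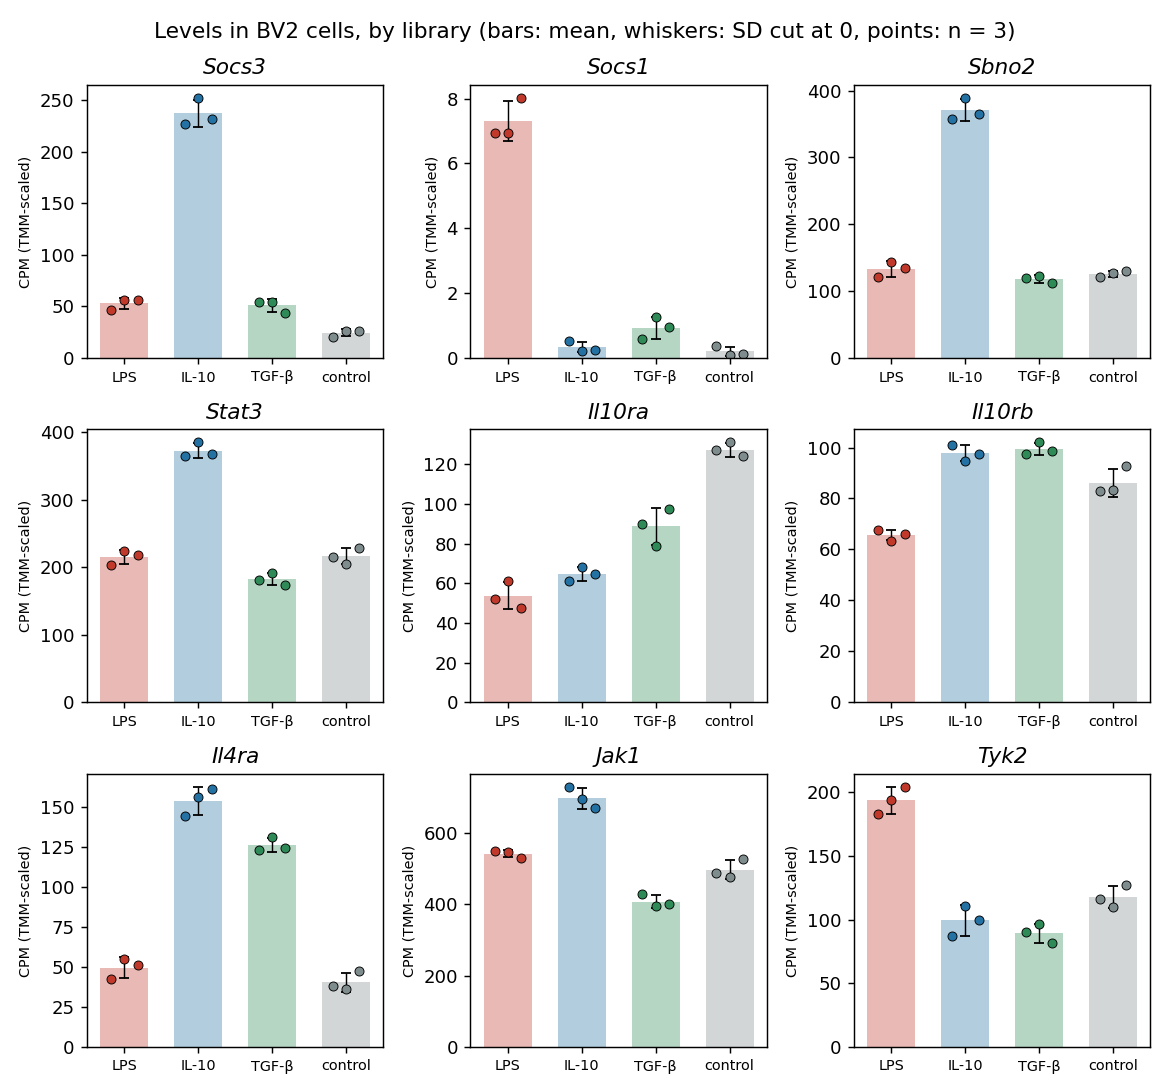
Level of each of the 9 genes in BV2 cells, in TMM-scaled CPM on a linear axis starting at 0; each point is 1 library (n = 3 per group), bars are means and whiskers the SD. The IL-10 points stand above those of all other groups for Socs3, Sbno2, Stat3, Il4ra and Jak1, and the LPS points do so for Socs1 and Tyk2.

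In IL-10-treated cells, Socs3 rose almost an order of magnitude, Il4ra and Sbno2 rose several-fold, and Stat3 and Jak1 rose to a smaller degree, while Il10ra fell. Of the 8 genes tested against control cells with edgeR's quasi-likelihood test (Benjamini-Hochberg adjusted p under 0.05), 5 were higher and 2 lower. Of all genes tested, 12.3% were higher and 10.9% lower. The libraries of the 2 groups did not overlap for 7 of the 8, and for 37.9% of all genes. The same control libraries serve all 3 treatments in cells, so the comparisons with control are not independent of each other. As these are bulk libraries, a change in the share of cells that express a gene and a change per cell cannot be told apart.

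Socs3, the feedback inhibitor, was at 227, 252 and 232 CPM in the IL-10 libraries, against 20.6, 26.4 and 25.9 CPM in the control libraries. No IL-10 library came near a control library. The log2 fold change was 3.28 with a standard error (SE) of 0.09, which is 9.72-fold higher (edgeR adjusted p = 1.41e-14). LPS cells held 46.3, 56.0 and 56.1 CPM and TGF-β cells 54.3, 54.5 and 43.5 CPM, also above all 3 control libraries. Those differences were 1.12 on the log2 scale for LPS over control cells (SE 0.11, edgeR adjusted p = 6.06e-08) and 1.06 for TGF-β over control cells (SE 0.13, edgeR adjusted p = 2.63e-05). Socs3 levels thus ran IL-10 first, then LPS and TGF-β, then control. LPS and TGF-β cells did not differ beyond their spread, with a log2 difference of 0.06 and a 95% interval of -0.17 to 0.28. Both were lower than IL-10 cells, LPS cells 4.49-fold (edgeR adjusted p = 6.72e-12) and TGF-β cells 4.67-fold (edgeR adjusted p = 7.66e-12).

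Sbno2, the co-regulator, changed in IL-10 cells alone among the 3 treatments tested against control. Its level was 358, 389 and 365 CPM in IL-10 cells, 121, 144 and 135 CPM in LPS cells and 120, 123 and 112 CPM in TGF-β cells, against 121, 127 and 130 CPM in control cells. The IL-10 libraries stood apart, and the other 9 libraries overlapped. IL-10 cells were 2.94-fold higher than control cells, a log2 fold change of 1.56 with an SE of 0.06 (edgeR adjusted p = 1.02e-12). The 95% intervals of the log2 differences from control were -0.06 to 0.24 for LPS and -0.24 to 0.06 for TGF-β. LPS cells were 2.77-fold lower than IL-10 cells (edgeR adjusted p = 3.65e-12) and TGF-β cells 3.13-fold lower (edgeR adjusted p = 1.42e-12).

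Stat3, the transcription factor that both genes respond to, was at 365, 385 and 368 CPM in IL-10 cells, against 215, 205 and 229 CPM in control cells. The groups did not overlap, and the log2 fold change was 0.78 (SE 0.06, 1.72-fold, edgeR adjusted p = 1.3e-08). LPS cells held 204, 224 and 218 CPM and lay among the controls, with a 95% interval of -0.14 to 0.13 for the log2 difference. TGF-β cells held 181, 192 and 174 CPM, all below the control libraries (log2 fold change -0.25, SE 0.07, edgeR adjusted p = 0.0175). That call was lost without TGF-β library 1 (adjusted p = 0.061), control library 1 (adjusted p = 0.0605) or control library 3 (adjusted p = 0.1). A stretch of 72 bases, 0.8% of the Stat3 exon length, is shared with an exon of Stat5a on the other strand, and no source used here says whether counting used the strand.

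Of the 2 receptor chains, Il10ra fell in every treatment and Il10rb passed the test in LPS cells alone, where it also fell. Il10ra was at 52.3, 61.2 and 47.8 CPM in LPS cells, 61.4, 68.4 and 64.8 CPM in IL-10 cells and 90.1, 78.9 and 97.2 CPM in TGF-β cells, against 127, 131 and 124 CPM in control cells. No treated library reached a control library. The log2 fold changes from control were -1.25 for LPS (SE 0.08, edgeR adjusted p = 2.86e-10), -0.97 for IL-10 (SE 0.07, edgeR adjusted p = 6.53e-09) and -0.52 for TGF-β (SE 0.08, edgeR adjusted p = 0.000326). TGF-β cells were 1.37-fold higher than IL-10 cells (edgeR adjusted p = 0.000689). LPS cells were 1.21-fold lower than IL-10 cells (edgeR adjusted p = 0.0199), a call that was lost without LPS library 1 (0.0563), LPS library 3 (0.118) or IL-10 library 2 (0.0751).

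Il10rb, the shared chain, was at 67.6, 63.4 and 65.9 CPM in LPS cells, against 82.8, 83.3 and 92.6 CPM in control cells. It fell by 0.39 on the log2 scale in LPS cells (SE 0.08, edgeR adjusted p = 0.000206). IL-10 cells held 101, 94.9 and 97.5 CPM and TGF-β cells 97.4, 102 and 98.7 CPM. Both groups lay above all control libraries without passing the threshold, at 0.18 on the log2 scale for IL-10 (edgeR adjusted p = 0.0743) and 0.20 for TGF-β (edgeR adjusted p = 0.0573). The TGF-β value passed when the filter asked for a mean of at least 50 counts (0.0493) or when all 12 cell libraries entered the fit (0.0351). A predicted gene, Gm21970, shares 569 bases, or 14.9%, of the Il10rb exon length on the same strand.

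Per kilobase of exon, the Il10ra count divided by the Il10rb count was 0.841, 1.05 and 0.79 in LPS cells, 0.663, 0.784 and 0.724 in IL-10 cells and 1.01, 0.845 and 1.07 in TGF-β cells, against 1.67, 1.71 and 1.46 in control cells. The ligand-binding chain was the more abundant RNA in every control library, and the ratio was lower in each of the 9 treated libraries than in any control library. No test was run on the ratio.

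Il4ra rose in all 3 treatments, strongly in 2 of them. IL-10 cells held 144, 156 and 161 CPM and TGF-β cells 123, 131 and 124 CPM, against 37.9, 36.0 and 47.1 CPM in control cells. These 2 treated groups lay far above the controls, 3.8-fold for IL-10 (log2 fold change 1.93, SE 0.09, edgeR adjusted p = 3.15e-11) and 3.12-fold for TGF-β (log2 fold change 1.64, SE 0.1, edgeR adjusted p = 5.32e-08). LPS cells held 42.1, 55.2 and 50.9 CPM and overlapped the controls. The LPS difference was 0.29 on the log2 scale (SE 0.11, edgeR adjusted p = 0.0325). It did not pass without LPS library 2 (0.188), LPS library 3 (0.0906), control library 1 (0.118) or control library 2 (0.142). TGF-β cells were 1.22-fold lower than IL-10 cells (edgeR adjusted p = 0.0329), a call that was lost without IL-10 library 2 (0.0892) or 3 (0.121) or TGF-β library 1 (0.0896) or 3 (0.0751). A gene on the other strand, Gm44876, overlaps 571 bases, or 9.5%, of the Il4ra exon length.

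Of the 2 kinases, Jak1 was highest in IL-10 cells and Tyk2 in LPS cells, and both fell in TGF-β cells. Jak1 was at 729, 694 and 670 CPM in IL-10 cells, 548, 547 and 530 CPM in LPS cells and 428, 395 and 400 CPM in TGF-β cells, against 487, 476 and 527 CPM in control cells. IL-10 cells were highest and TGF-β cells lowest, with no overlap with control in either. Jak1 was 1.4-fold higher in IL-10 cells (log2 fold change 0.49, SE 0.06, edgeR adjusted p = 3.68e-06) and 1.22-fold lower in TGF-β cells (log2 fold change -0.29, SE 0.07, edgeR adjusted p = 0.00552). In LPS cells the log2 difference of 0.13 from control did not pass (edgeR adjusted p = 0.0915).

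Tyk2 was at 183, 194 and 204 CPM in LPS cells, 86.8, 111 and 100 CPM in IL-10 cells and 90.1, 96.2 and 81.2 CPM in TGF-β cells, against 116, 110 and 127 CPM in control cells. The LPS libraries were the only ones above the controls. LPS cells were 1.64-fold higher than control cells (log2 fold change 0.72, SE 0.07, edgeR adjusted p = 4.93e-08), and TGF-β cells 1.32-fold lower (log2 fold change -0.4, SE 0.08, edgeR adjusted p = 0.00263). IL-10 cells overlapped the controls and were 1.19-fold lower (edgeR adjusted p = 0.042). The IL-10 call was lost when the fit took all 12 libraries (0.0652) and without IL-10 library 1 (0.15) or 3 (0.0576) or control library 1 (0.107) or 3 (0.2). A non-coding gene on the other strand, 1700084C06Rik, overlaps 8.1% of the Tyk2 exon length.

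Socs1 was nearly silent outside LPS. LPS cells gave 322, 208 and 276 counts, or 6.95, 6.94 and 8.02 CPM, and control cells 10, 3 and 4 counts, or 0.366, 0.0917 and 0.134 CPM. The difference was 37.7-fold (log2 fold change 5.24, SE 0.35, edgeR adjusted p = 2.23e-10). TGF-β cells gave 19, 33 and 34 counts, IL-10 cells 17, 7 and 8 counts. TGF-β cells were 4.73-fold higher than control cells (edgeR adjusted p = 0.0137), a call that was lost without control library 2 (0.0658) or 3 (0.0678). In IL-10 cells Socs1 was left out by the filter on low counts, and without that filter its log2 difference from control was 0.75 (SE 0.83, edgeR adjusted p = 0.585). Socs3 and Socs1 thus peaked in different treatments. In LPS over IL-10 cells Socs1 was 21.9-fold higher (edgeR adjusted p = 2.58e-08), while Socs3 was lower.

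**Figure D2:**
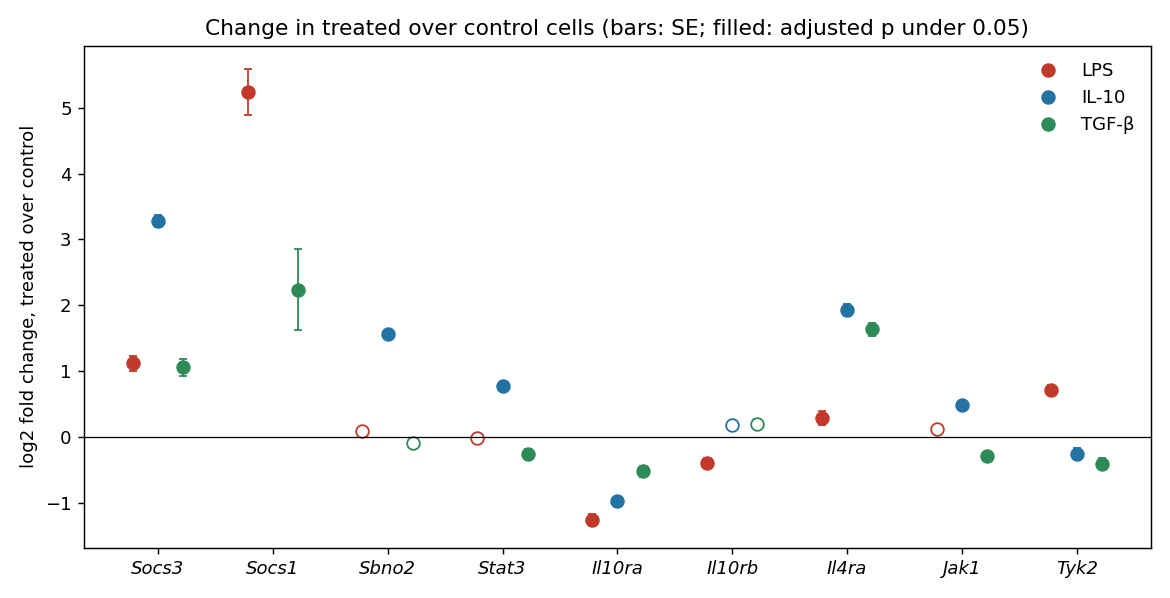
Log2 fold change of each gene in treated over control cells, with SE bars; filled points passed an adjusted p under 0.05 and open points did not. Socs1 reached 5.24 under LPS and Socs3 3.28 under IL-10, and Il10ra lay below 0 in all 3 treatments; Socs1 was not tested under IL-10.

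Across the treatments, 4 of the 9 genes were higher and 2 lower in LPS cells than in control cells, where 28.6% of all genes tested were higher and 27.5% lower. The libraries did not overlap for 6 of the 9, against 62.4% of all genes. In TGF-β cells 3 were higher and 4 lower than in control cells, with 14.5% and 15.4% of all genes, and 8 of 9 did not overlap, against 44.9% of all genes. Against IL-10 cells, 2 were higher and 7 lower in LPS cells (27.0% and 26.3% of all genes), and 2 were higher and 5 lower in TGF-β cells (18.3% and 20.0%). In LPS over TGF-β cells, 5 were higher and 3 lower (29.3% and 27.8%). Stat3 was 1.18-fold and Jak1 1.33-fold higher in LPS than in TGF-β cells, and Tyk2 was 2.17-fold higher. The Sbno2 call among these 5 (log2 difference 0.17, edgeR adjusted p = 0.0489) did not hold in 13 of 17 alternative settings, where the adjusted p ranged up to 0.237.

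Per kilobase of exon, Jak1 was the most abundant of the 9 RNAs in every group of cells, at 74.9 ± 1.36 CPM per kb in LPS cells, 96.5 ± 4.13 in IL-10 cells, 56.4 ± 2.45 in TGF-β cells and 68.8 ± 3.72 in control cells (SD, n = 3 each). Socs1 was the least abundant in every group. Socs3 changed place. It was second in IL-10 cells at 82.0 ± 4.57 CPM per kb, and seventh of 9 in control cells, just above Il4ra, at 8.41 ± 1.13 CPM per kb for Socs3 and 6.72 ± 0.984 for Il4ra. In control cells Il10ra, at 36.4 ± 0.903 CPM per kb, was second after Jak1.

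Over the 12 cell libraries, which share their treatments, Sbno2 and Stat3 ran together most closely among the 9 genes (Pearson r = 0.98 of log2(CPM + 1)), followed by Stat3 with Jak1 and Socs3 with Sbno2, both at 0.93. Il10rb and Tyk2 ran opposite ways, at -0.95. Among 9504 other genes with a mean of at least 100 counts, the 2 most like Socs3 were Ms4a6d (0.974) and Pfkfb3 (0.971), and those most like Sbno2 were Tmem8 (0.984) and Themis2 (0.978). Tes (0.988) and Tspan13 (0.981) were most like Stat3. Tes averaged 368 CPM in IL-10 cells, 178 CPM in LPS cells and 144 CPM in TGF-β cells, against 184 CPM in control cells. Socs1 was closest to Mroh2a (0.987) and Nfkbia (0.986). Nfkbia averaged 446 CPM in LPS cells, 35.7 CPM in IL-10 cells and 45.2 CPM in TGF-β cells, against 30.4 CPM in control cells. The nearest genes to Il10ra were Depp1 (0.961) and B4galnt1 (0.954), to Il10rb Lbh (0.985) and Slc2a8 (0.981), and to Il4ra Mt1 (0.973) and Arl6ip1 (0.957). Riok3 (0.983) and Rbpj (0.981) were nearest to Jak1, and Slc6a12 (0.98) and Mrpl21 (0.975) to Tyk2. These values describe 4 group levels more than 12 independent points.

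The genes around the 9 were taken from 2 lists. Of 75 other receptor chains, ligands, kinases, STATs and inhibitors of JAK-STAT signalling, 56 are listed in the tables. In IL-10 cells 14 of the 46 tested were higher and 5 lower than in control cells, where 12.3% and 10.9% of all genes were, with a median log2 difference of 0.13 against 0.0 over all genes. Among receptor chains, 9 of 17 were higher and 2 lower. Il13ra1, which pairs with Il4ra, averaged 286 ± 5.07 CPM in IL-10 cells and 152 ± 0.864 CPM in control cells (SD, n = 3 each), and Il6st, the gp130 chain of the IL-6 family, 235 ± 7.65 CPM in IL-10 cells and 134 ± 14.7 CPM in control cells. Il6ra was 1.69-fold lower and Ifnar1 1.45-fold higher. Jak3 was 2.78-fold higher, Stat2 1.47-fold higher and Stat6 1.2-fold lower. Of the 17 inhibitors and phosphatases, 3 were higher and none lower, and these were Ptpn1 (1.82-fold), Socs6 (1.46-fold) and Ptpn2 (1.28-fold). The ligands Osm and Il15 were lower, 1.67-fold and 1.54-fold.

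In LPS cells 18 of 51 of these genes were higher and 15 lower than in control cells, where 28.6% and 27.5% of all genes were, with a median of -0.01 against 0.01 over all genes. Il20rb was 56.4-fold and Il2rg 3.52-fold higher, and Il6st and Csf2rb2 were 2.42-fold and 2.44-fold lower. Jak2 was 2.35-fold higher. Stat2 was 1.65-fold higher, and Stat5a and Stat5b were 1.96-fold and 1.61-fold lower. Usp18, which binds an interferon receptor chain and damps it, was 3.65-fold higher, Ptpn1 2.23-fold and Ptpn6 1.44-fold higher, and Socs6 2.71-fold lower. The ligand subunits Ebi3 and Il27, which together form IL-27, a cytokine of the IL-12 family, were 31.2-fold and 31.5-fold higher. Csf3 averaged 13.4 CPM of library totals in LPS cells and had no count in control cells, which makes it at least 131-fold higher at a floor of 3 counts per library. Il15 was 2.26-fold lower.

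In TGF-β cells 11 of 46 of these genes were higher and 10 lower than in control cells, where 14.5% and 15.4% of all genes were, with a median log2 difference of -0.06 against 0.01 over all genes. Csf2rb and Csf2rb2, near-identical receptor genes whose reads the counting could have split, were 1.97-fold and 2.17-fold lower, Il6st 1.8-fold lower and Csf3r 1.75-fold higher. Jak3 was 1.45-fold higher, and Stat5b and Stat2 were 1.38-fold and 1.26-fold lower. Among inhibitors, Socs2 (2.51-fold), Ptpn6 (1.41-fold) and Socs6 (1.4-fold) were higher and Usp18 was 2.59-fold lower. Il15 was 1.65-fold lower.

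The second list holds 46 genes that IL-10 or Stat3 is known to induce in macrophages, or that mark such a response, of which 41 are listed in the tables. Both lists were chosen with earlier results of these data known. The shares below therefore describe the list and are no test of a response. In IL-10 cells 23 of 41 were higher and 3 lower than in control cells, where 12.3% and 10.9% of all genes were. The median log2 difference was 0.41 against 0.0 over all genes. Msr1, a scavenger receptor, averaged 60.9 ± 1.05 CPM in IL-10 cells and 7.03 ± 0.714 CPM in control cells. Lrg1, a secreted acute-phase glycoprotein, was 121-fold higher, Bcl3, an atypical IκB protein, 7.89-fold higher, and Hmox1, the haem-degrading enzyme, 2.69-fold higher. In TGF-β cells 5 of 39 were higher and 18 lower, where 14.5% and 15.4% of all genes were. The median was -0.52 against 0.01. Il1rn, the IL-1 receptor antagonist, was 7.99-fold lower there, Slpi 2.95-fold, Cd14 2.62-fold and Mrc1 1.96-fold lower. In LPS cells 16 of 39 were higher and 15 lower, where 28.6% and 27.5% of all genes were. The median was 0.05 against 0.01. Saa3 was 542-fold, Pim2 17.2-fold and Tnip3 14.2-fold higher, and Mrc1, the mannose receptor, was 5.22-fold lower. The rise of Saa3 was not particular to LPS. It averaged 1010 ± 208 CPM in IL-10 cells and 6.82 ± 0.59 CPM in control cells, 148-fold higher (edgeR adjusted p = 2.36e-06). In TGF-β cells Saa3 was 2.33-fold lower than in control cells.

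**Figure D3:**
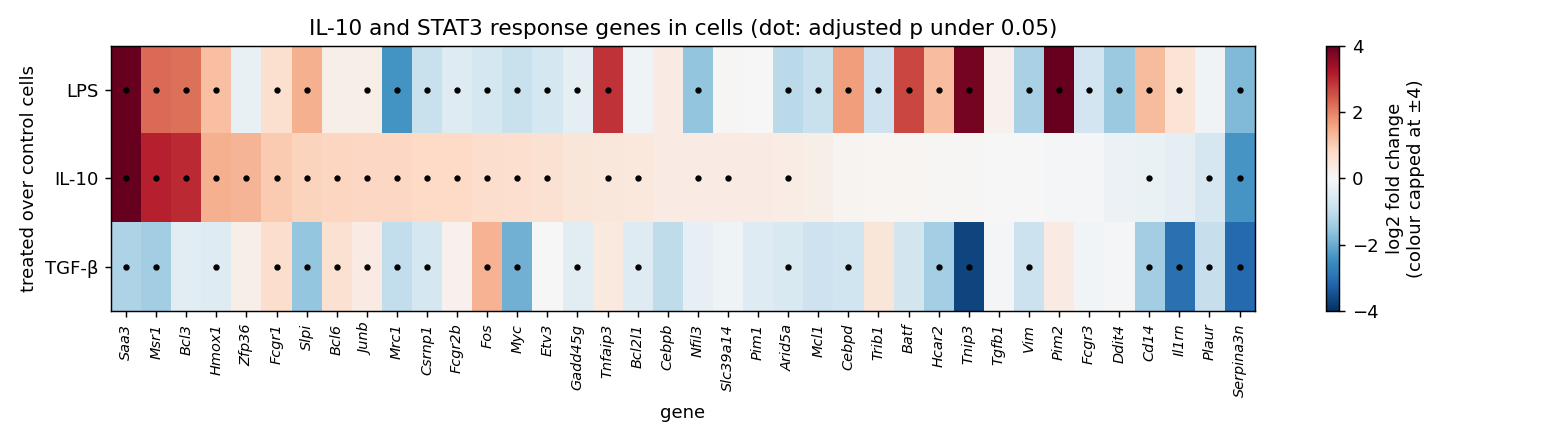
Log2 fold change of the 38 IL-10 and STAT3 response genes tested in all 3 comparisons, treated over control cells, with colour capped at ±4; columns are ordered by the IL-10 value and a dot marks an adjusted p under 0.05. Most IL-10 squares are at or above 0, and most TGF-β squares are below 0.

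In EVs, the 9 genes varied far more between libraries of a group. Without Socs1, the coefficient of variation had a median of 65.6% and reached 173% in EVs, against a median of 5.42% and a highest value of 14.6% in cells. In EV libraries 17 of 108 values were 0, while none of 108 in cells was. EV libraries were shallower, and depth, RNA input and compartment cannot be told apart in this design. None of the 9 genes passed in EVs of treated against EVs of control cells.

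Socs3 was at 7.98, 27.3 and 28.1 CPM in LPS EVs, 74.7, 98.2 and 19.1 CPM in IL-10 EVs and 89.0, 31.7 and 39.4 CPM in TGF-β EVs, against 21.7, 118 and 58.2 CPM in control EVs. Each treated group overlapped the control EVs, and all 3 LPS EV libraries lay below all 3 TGF-β EV libraries. The IL-10 EV libraries did not stand above the other groups, as they did in cells. IL-10 EVs differed from control EVs by -0.1 on the log2 scale, with a 95% interval of -2.16 to 1.97. That interval lies below the log2 fold change of 3.28 found in IL-10 cells, but this is no test of the difference. The interaction test of EVs against cells, given below, did not pass for Socs3 under IL-10. For LPS EVs the log2 difference was -1.64 (SE 0.84, edgeR adjusted p = 0.374).

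Stat3 was at 44.0, 77.3 and 57.0 CPM in LPS EVs, 83.3, 77.0 and 205 CPM in IL-10 EVs and 108, 107 and 79.8 CPM in TGF-β EVs, against 268, 125 and 31.0 CPM in control EVs. The control EV libraries held both the lowest and the highest of the 12 values. Jak1 was at 97.7, 166 and 282 CPM in LPS EVs, 53.0, 116 and 177 CPM in IL-10 EVs and 14.4, 237 and 43.8 CPM in TGF-β EVs, against 272, 216 and 435 CPM in control EVs. All 3 IL-10 EV libraries lay below all 3 control EV libraries for Jak1 (log2 difference -1.46, SE 0.58, unadjusted p = 0.0402, edgeR adjusted p = 1.0).

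Socs1 was counted in all 3 LPS EV libraries, at 64, 49 and 9 counts, and in 1 of the other 9 EV libraries, a control library with 35 counts. In the LPS EVs that was 13.8, 11.8 and 1.18 CPM, against 0, 0 and 4.89 CPM in control EVs, and the log2 difference of 2.47 did not pass (SE 2.22, edgeR adjusted p = 0.722). A library with no count allows up to 3 counts, or 0.167 to 0.994 CPM over the EV libraries by depth, for counting error only. Without control EV library 3 the edgeR adjusted p was 0.0479, and Tyk2, too, passed without control EV library 2 (0.0354). Each left-out library was the only control EV library with a count of that gene, so the remaining control libraries were at 0.

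Il4ra was at 64.5, 44.0 and 17.8 CPM in LPS EVs, 62.7, 46.5 and 58.2 CPM in IL-10 EVs and 142, 53.1 and 44.5 CPM in TGF-β EVs, against 26.2, 7.55 and 0 CPM in control EVs. The IL-10 and TGF-β EV libraries lay above every control EV library, as in cells, but no test passed (edgeR adjusted p = 1.0 for IL-10, 0.999 for TGF-β and 0.722 for LPS). Il4ra and Jak1 were the 2 of 7 genes with no overlap between IL-10 and control EVs, as was the case for 9.94% of all genes. For TGF-β and control EVs these were Il4ra and, scaled within that comparison, Il10rb, 2 of 8, against 16.9% of all genes. Il10rb ranged over 30.0 to 37.5 CPM in LPS EVs, 16.3 to 150 CPM in IL-10 EVs and 4.21 to 43.2 CPM in TGF-β EVs, against 41.1 to 48.9 CPM in control EVs. It was the 1 gene of the 9 whose LPS and control EV libraries did not overlap, as was the case for 31.8% of all genes. Il10ra, Sbno2 and Tyk2 each had libraries at 0. Tyk2 was at 116, 0 and 0 CPM in IL-10 EVs, and at 0, 61.9 and 0 CPM in control EVs.

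**Figure D4:**
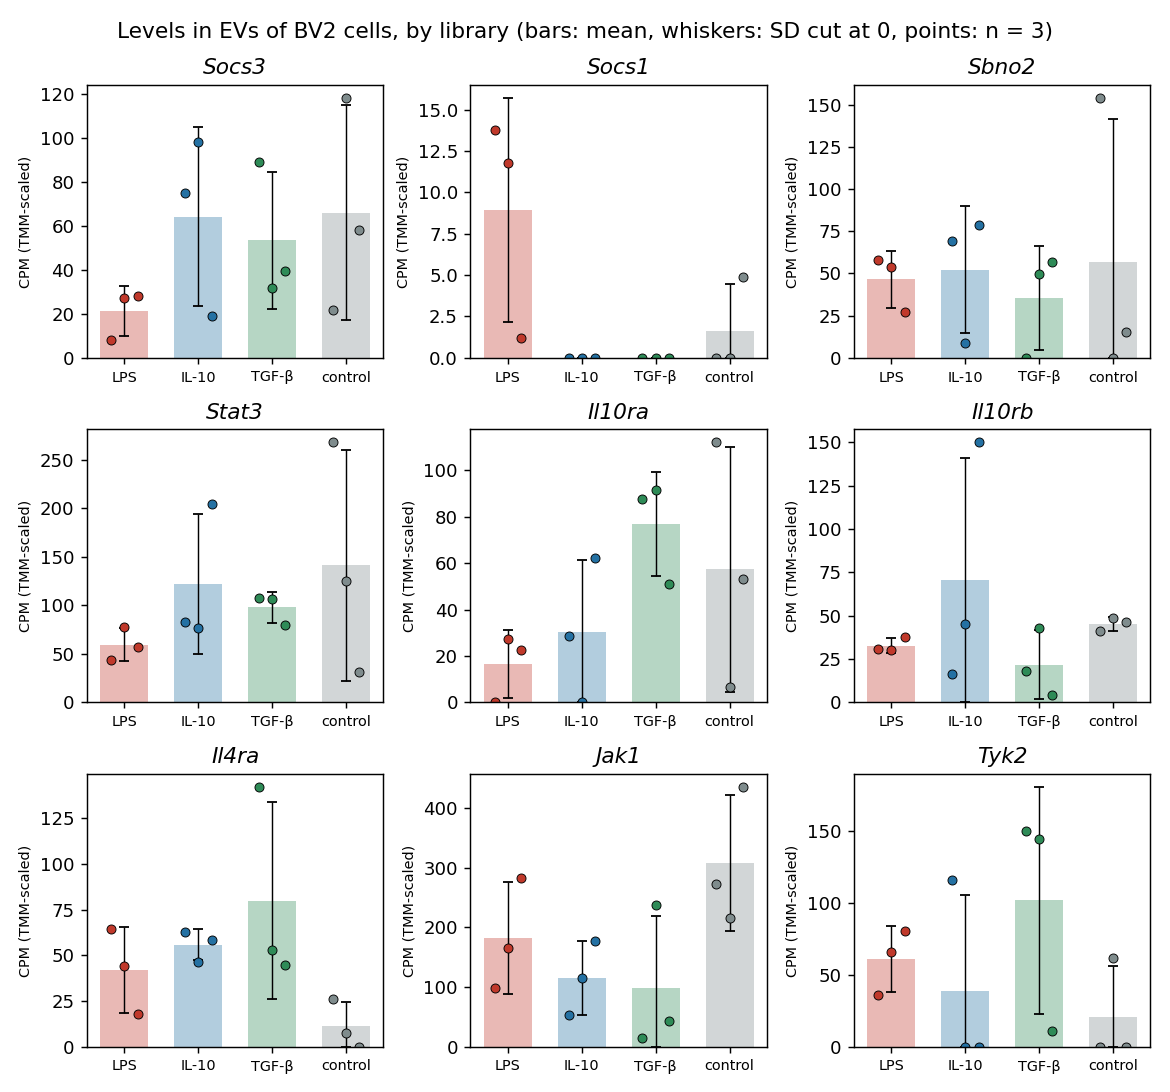
Level of each of the 9 genes in EV libraries, in TMM-scaled CPM on a linear axis starting at 0; each point is 1 library (n = 3 per group), bars are means and whiskers the SD, cut at 0. Each treated group overlaps the control EVs for Socs3, Stat3, Sbno2, Il10ra and Tyk2, and points at 0 are common for Tyk2 and Socs1.

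By comparison, 0 of the 9 genes passed in LPS over control EVs, where 13.9% of all genes were higher and 0.237% lower. None of them had an unadjusted p under 0.05 (0 of 9), and DESeq2 and limma-voom also called 0. No gene of the whole table passed in this comparison without any one of the LPS EV libraries, with a mean of at least 50 counts, or with all 12 EV libraries in 1 fit. In IL-10 over control EVs 0 of 7 passed, as did 0.0% of all genes, with 1 unadjusted p under 0.05 and 0 calls by DESeq2 and limma-voom. In TGF-β over control EVs 0 of 8 passed, as did 0.0% of all genes, with 0 unadjusted and 0 calls by the other tools. Markers of several other cell types were higher in LPS EVs, and those of oligodendrocytes were not. The 3 neuronal markers listed summed to 20.1 to 146 CPM in LPS EVs, against 0 to 9.13 CPM in control EVs, where Syt1 and Rbfox3 were at 0. The 2 endothelial markers, Pecam1 and Kdr, summed to 13.7 to 72.5 CPM, against 0 CPM. The 2 B-cell markers summed to 14.5 to 46.4 CPM, against 0 to 8.79 CPM, and the 2 astrocyte markers to 34.1 to 159 CPM, against 0 to 36.2 CPM. The 1 oligodendrocyte marker listed was at 0.686 to 4.31 CPM in LPS EVs, against 0 to 60.5 CPM in control EVs. Their part in the LPS EV results was not tested.

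Of the JAK-STAT list, 9 of 54 genes were higher and 0 lower in LPS EVs than in control EVs, where 13.9% and 0.237% of all genes were. Several of these had no count in control EVs, where 28.98% to 33.45% of all listed genes had none, against 0.49% to 4.42% in LPS EVs. The part of that difference in these results was not tested. Osmr and Lifr, receptor chains of the IL-6 family that pair with gp130, had no count in control EVs and averaged 49.4 and 31.5 CPM of library totals in LPS EVs, at least 132-fold and 83.9-fold higher by the means. Scaled within the comparison, LPS EVs held 41.2 ± 31.2 CPM of Osmr and 26.1 ± 21.4 CPM of Lifr. The bounds leave out this spread. By the same floor of 3 counts per library, the ligand genes Csf3 and Il6 were at least 147-fold and at least 34.9-fold higher. Jak2 averaged 32.0 ± 17.4 CPM in LPS EVs and 0.213 ± 0.184 CPM in control EVs (SD, n = 3 each). Of the response list, 1 of 37 was higher and 0 lower, Trib1 at least 23.2-fold. None of the calls in these lists held when an LPS EV library was left out.

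Set against the cells of the same treatment, each of the 9 genes that passed was lower in EVs. In LPS EVs over LPS cells 6 of 9 genes were lower and 0 higher, where 15.2% of all genes were lower and 25.3% higher. The median log2 difference of the 9 was -1.62, against 0.13 over all genes tested. Stat3 was 3.88-fold lower (log2 difference -1.96, SE 0.25, edgeR adjusted p = 0.000758), Tyk2 3.37-fold, Jak1 3.16-fold, Sbno2 3.08-fold, Socs3 2.66-fold and Il10rb 2.13-fold lower. The Socs3 call (edgeR adjusted p = 0.039) was lost without LPS EV library 2 (0.0576) or without any one LPS cell library (0.0834 to 0.109), and the Il10rb call without LPS cell library 1 (0.0544) or 3 (0.0561). Socs1 did not differ beyond its spread between LPS EVs and LPS cells, with a 95% interval of -1.65 to 2.01 for the log2 difference, and neither did Il4ra (-1.34 to 0.68).

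Of the JAK-STAT list, 12 of 56 genes were higher and 14 lower in LPS EVs than in LPS cells, and of the response list 3 of 39 were higher and 13 lower. Over all genes tested, the shares were 25.3% higher and 15.2% lower. The median log2 difference was -0.25 for the first list and -0.73 for the second. Stat6, which carries the IL-4 signal, was 4.4-fold lower, Stat2 2.9-fold, Jak3 4.49-fold and the phosphatase gene Ptpn1 2.76-fold lower. Socs2, a brake on growth hormone signalling, went the other way, at 38.9 ± 16.7 CPM in LPS EVs and 3.33 ± 0.374 CPM in LPS cells. Of the ligand genes, Il6 was 13.3-fold higher, at 11.0 CPM in LPS EVs and 0.815 CPM in LPS cells, and Ebi3 was 3.86-fold lower. The response genes Lcn2 and Hmox1 were 6.19-fold and 4.42-fold lower.

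In IL-10 EVs over IL-10 cells 2 of 8 genes were lower and 0 higher, where 10.2% of all genes were lower and 7.49% higher. Jak1 was 5.84-fold lower (log2 difference -2.55, SE 0.44, edgeR adjusted p = 0.0184) and Il4ra 2.61-fold lower (log2 difference -1.39, SE 0.26, edgeR adjusted p = 0.019). Both calls were lost when any one IL-10 cell library was left out (Jak1 0.107 to 0.117, Il4ra 0.119 to 0.124), where 0 genes of the whole table passed. Sbno2, Stat3 and Socs3 had log2 differences of -2.74, -1.56 and -1.81 with adjusted p of 0.0743, 0.0622 and 0.11, and DESeq2 called all 3 lower. Of the JAK-STAT list 3 of 45 genes were higher and 2 lower, and of the response list 0 of 40 were higher and 9 lower. Pias2, which inhibits STATs, averaged 126 ± 22.7 CPM in IL-10 EVs and 33.1 ± 1.1 CPM in IL-10 cells. Socs7 was 53.3-fold higher with a wide spread, at 216 ± 189 CPM in IL-10 EVs and 4.05 ± 0.734 CPM in IL-10 cells. The response gene Cebpb was 28.4-fold lower, at 2.56 ± 1.33 CPM in IL-10 EVs and 72.8 ± 51.8 CPM in IL-10 cells. This was not particular to IL-10. Cebpb was also 20.2-fold lower in control EVs than in control cells (edgeR adjusted p = 0.0216). In TGF-β EVs over TGF-β cells it did not pass (edgeR adjusted p = 0.498). Csf3r and Tnfaip3 had no count in IL-10 EVs, which makes them at least 34.5-fold and 43.0-fold lower at the floor. None of these calls in IL-10 EVs over IL-10 cells held without any one IL-10 cell library.

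In TGF-β EVs over TGF-β cells 1 of 9 was lower and 0 higher, where 8.99% of all genes were lower and 9.42% higher. That gene was Socs1, with no count in any TGF-β EV library, where 19.58% to 50.0% of all listed genes had none. Its mean of 0.942 CPM of library totals in TGF-β cells was 2.02-fold above the mean floor of 3 counts per EV library (0.466 CPM). This bound holds for the means only. TGF-β cell library 1, at 0.582 CPM, lay below the floor of TGF-β EV library 1 (0.658 CPM). Stat3 had a log2 difference of -0.85 (SE 0.23, edgeR adjusted p = 0.0527). Of the JAK-STAT list 3 of 45 genes were higher and 3 lower, and of the response list 4 of 38 were higher and 5 lower. The phosphatase gene Ptpn11 averaged 364 ± 110.0 CPM in TGF-β EVs and 55.1 ± 2.37 CPM in TGF-β cells, and Socs7 174 ± 85.9 CPM in TGF-β EVs and 4.21 ± 1.6 CPM in TGF-β cells. Il13ra1 was 2.76-fold lower, and Il15ra, with no count in TGF-β EVs, at least 9.62-fold lower. Lcn2 was higher, at 100.0 ± 118 CPM in TGF-β EVs and 0.00849 ± 0.0147 CPM in TGF-β cells. This was not particular to TGF-β. Control EVs held 216 ± 162 CPM and control cells 0.072 ± 0.125 CPM (edgeR adjusted p = 0.0216). IL-10 EVs held 149 ± 216 CPM and IL-10 cells 0.438 ± 0.0631 CPM, without passing (edgeR adjusted p = 0.0884). Lrg1, with no count in TGF-β EVs, was at least 1.95-fold lower than in TGF-β cells. In control EVs over control cells 0 of 8 passed by edgeR, where 9.43% of all genes were lower and 1.23% higher. There 1 gene, Il10rb, had an unadjusted p under 0.05 (log2 difference -0.87, SE 0.24, edgeR adjusted p = 0.0945), and DESeq2 called Il10rb and limma-voom called Sbno2, 1 gene each. Of the JAK-STAT list 0 of 46 genes were higher and 1 lower, and of the response list 2 of 39 were higher and 4 lower. The Socs3 estimate there was positive, at 1.49 on the log2 scale (SE 0.66, edgeR adjusted p = 0.284).

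**Figure D5:**
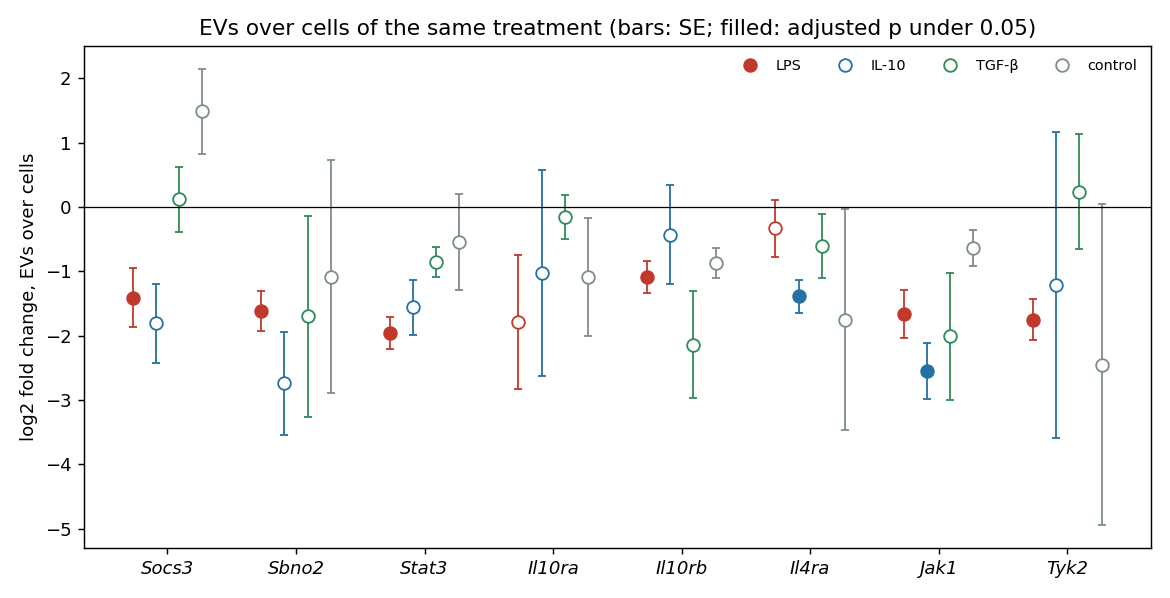
Log2 fold change of 8 genes in EVs over cells of the same treatment, with SE bars; filled points passed an adjusted p under 0.05. Most estimates lie below 0, and Socs3 runs from 1.49 in control samples to -1.81 in IL-10 samples; Socs1 is left out because it had no count in IL-10 and TGF-β EVs.

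Whether a treatment acted differently on EV RNA than on cell RNA was tested as an interaction in 1 fit of the treated and control libraries of both compartments. For LPS, 1 of the 9 genes passed. This was Socs3, with a lower response in EVs by 2.9 on the log2 scale. Of all genes, 2.04% were lower and 14.1% higher in this test. The Socs3 estimate was -2.9 (SE 0.87, edgeR adjusted p = 0.0441). It was lost under RLE scaling (0.0759), limma-voom (0.0935), a mean of at least 50 counts (0.0983) and scaling by library totals (0.0899). It was also lost when any one of 10 libraries was left out, with adjusted p of 0.0536 to 0.112.

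For IL-10, 0 of 8 genes passed by edgeR, where 0.109% of all genes were higher and 0.176% lower, and limma-voom called 0. There were 2 with an unadjusted p under 0.05, Socs3 (-3.34, SE 0.89, edgeR adjusted p = 0.281) and Jak1 (-1.9, SE 0.58, edgeR adjusted p = 0.284), and DESeq2 called those 2. For TGF-β, 0 of 9 passed, where 0.134% of all genes were higher and 0.176% lower. There 1 gene had an unadjusted p under 0.05, Socs1, which had no count in TGF-β EVs, and DESeq2 and limma-voom called 0.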

How the data were processed

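Tables of raw counts per gene were used as deposited by the authors, 6 in all, 1 for each treatment and compartment, with identical control columns in tables that share them. Per the labels' protocols, RNA was extracted from cells and EVs and libraries were made with SMART-Seq v4 and Nextera XT. Per the submitters' processing notes DESeq2 was used. Which aligner, counter and build were used is not given in the sources used here. PCR reads without molecular identifiers are not independent molecules, so floors cover counting error only.

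Each column was put in a group by its treatment and compartment; the column numbers match no label and pair nothing. Counts were tested with edgeR 4.0.16 in R 4.3.3 (quasi-likelihood, TMM scaling, low-count filter by filterByExpr, two-sided, Benjamini-Hochberg over all genes tested, threshold 0.05). Comparisons with control and of EVs with cells used the libraries of the 2 groups; comparisons between treatments used all 12 cell libraries. Each edgeR SE is the absolute log2 fold change divided by the square root of the F statistic of the test. It is therefore approximate, above all for estimates near 0 and for genes with many values at 0. Intervals are 95% intervals from this SE and the t distribution with the degrees of freedom of the edgeR test. Pathway genes' means and SDs are scaled within their comparison. With 3 libraries against 3, an exact permutation test cannot go below p = 0.1, so none is given. Alternatives were other filters, scaling by RLE or by library totals, limma-voom (limma 3.58.1) with quality weights, DESeq2 1.42.0, a fit of all libraries and leaving out each library. Exon lengths are from GENCODE M21 (GRCm38), which may not be the annotation used for counting. The fits were also run on simulated counts for some of the comparisons, none of them with IL-10 or TGF-β EVs. No result given here rests on that run. The genes and lists were chosen with earlier results of these data known. Named genes are the 9 genes and genes picked by role. Of each role, the rule picks those with the lowest adjusted p past the threshold (up to 4 in a comparison between cells, up to 2 in any other). Not every gene it picks is given in the text. Genes of the 2 lists are not named for comparisons between treatments in cells or for the interaction tests, though some passed there. For each of the 9, the 2 other genes with the highest Pearson correlation of log2(CPM + 1) over the 12 cell libraries are named, among genes with a mean of at least 100 counts and without unnamed gene models. Genes at 0 in 1 group are given as bounds, at 3 counts per library. These bounds set the mean of the other group against the mean floor and leave out the spread between libraries. A result that this rule would name is not reported here.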

Additional observations from a re-analysis of the deposited data

Results flagged for a closer look

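The LPS effect on Socs3 differed between EVs and cells by an interaction test. LPS EVs held 7.98, 27.3 and 28.1 CPM and control EVs 21.7, 118 and 58.2 CPM, while LPS cells held 46.3, 56.0 and 56.1 CPM and control cells 20.6, 26.4 and 25.9 CPM. The LPS effect in EVs minus that in cells was -2.9 on the log2 scale (SE 0.87, edgeR adjusted p = 0.0441). The call was lost under RLE scaling (0.0759), limma-voom (0.0935), a mean of at least 50 counts (0.0983) and library totals (0.0899), and without any one of 10 of the 12 libraries (0.0536 to 0.112). The LPS EV libraries overlapped the control EV libraries, and depth, RNA input and compartment cannot be told apart. The 3 neuronal markers listed summed to 20.1 to 146 CPM in LPS EVs and 0 to 9.13 CPM in control EVs. Markers of several other cell types were also higher. The oligodendrocyte marker was at 0.686 to 4.31 CPM, against 0 to 60.5 CPM. Microglia and macrophage markers summed to 3441 to 5105 CPM, against 5375 to 7956 CPM. Of all listed genes, 0.49% to 4.42% were at 0 in LPS EVs, against 28.98% to 33.45% in control EVs. The part of these differences in this result was not tested.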

How the results depend on the processing

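No paired analysis was possible because the column numbers match no label. No called value of the 9 genes changed direction in any alternative run. When each library was left out in turn, 1057 of 1137 values of these genes kept their side of the threshold, 53 lost a call and 27 gained one. Under the other settings 760 of 791 kept it, 12 lost a call and 19 gained one. Over all alternatives, 62 values without a call changed sign.

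The number of the 9 genes called moved by over 1.5 times in comparisons that include EVs. In control EVs over control cells it was 0, and 1 with DESeq2 and 1 with limma-voom. In IL-10 EVs over cells it was 2, and 5 with DESeq2. In TGF-β EVs over cells it was 1, against 2 with RLE scaling, 3 with DESeq2, 3 with limma-voom, 0 with a mean of at least 50 counts and 2 with library totals. For the LPS interaction it was 1, and 0 with RLE scaling, limma-voom, a mean of at least 50 counts or library totals. For the IL-10 interaction it was 0, and 2 with DESeq2. Apart from fewer libraries or genes where those were left out, the cause was not tested.

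With each library left out, the count ranged from 0 to 1 in LPS over control EVs, 0 to 2 in control EVs over cells, 0 to 4 in IL-10 EVs over cells, 0 to 4 in TGF-β EVs over cells, 0 to 2 for the LPS interaction, 0 to 1 for the IL-10 interaction and 0 to 1 for the TGF-β interaction. In EV libraries 3 counts, the limit that a count of 0 allows, correspond to 0.167 to 0.994 CPM.

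Calls over all genes also moved by over 1.5 times where EVs entered. In LPS over control EVs 1703 genes were higher and 29 lower, against 3032 and 55 with limma-voom and 0 with a mean of at least 50 counts, with all EV libraries or without any one LPS EV library. DESeq2 called 20 higher and 25 lower in IL-10 over control EVs and 47 and 31 in TGF-β over control EVs, where edgeR called 0. In EVs over cells, edgeR, DESeq2 and limma-voom called 140, 997 and 362 higher and 1078, 1462 and 1822 lower for control, 857, 1668 and 897 higher and 1169, 1933 and 2270 lower for IL-10, and 1073, 1640 and 1064 higher and 1024, 2051 and 2368 lower for TGF-β. With a mean of at least 50 counts, 62 were higher and 487 lower for control. Library totals gave 3749 higher and 1341 lower for LPS, against 3320 and 1993. For the interactions, edgeR, DESeq2 and limma-voom called 13, 372 and 0 higher and 21, 329 and 2 lower for IL-10, and 16, 462 and 0 higher and 21, 318 and 4 lower for TGF-β. For LPS, edgeR called 1864 higher and 271 lower, limma-voom 22 and 61, and edgeR with a mean of at least 50 counts 711 and 131. RLE scaling moved the median log2 value of all genes from 0.226 to 0.481 in the LPS interaction and from -0.455 to -0.627 in TGF-β EVs over cells, and by less than 0.01 in treated over control cells.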
